A study of Mus musculus with 38 samples.

Results

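The isoacceptors of the tRNAs for alanine and proline were followed in sperm small RNA of 38 mice. An isoacceptor groups all tRNA genes that share an amino acid and an anticodon. All entries named tRNA-Ala or tRNA-Pro among the tRNA reads matching the genome were taken, whatever their values, which gave 7 of 54 isoacceptor entries. These were 4 for alanine (anticodons AGC, CGC, GGC and TGC) and 3 for proline (AGG, CGG and TGG). C57BL/6J dams ate a control diet (CT, 20% protein) or a protein-restricted diet (PR, 8% protein) from the vaginal plug until weaning at 21 days, and their sons then ate either diet until they were killed at 11 to 13 weeks of age after a fast of 16 h. The group names give the diet before weaning and then the diet after it, with 10 mice in CTCT, 9 in CTPR, 9 in PRCT and 10 in PRPR. The mice carried no engineered allele, and sons of the same dam were divided between the diets after weaning, so that 8 CT litters held a CTCT and a CTPR mouse and 9 PR litters a PRCT and a PRPR mouse. Sperm was let swim out of minced epididymides, and fragments with inserts of 13 to 73 bases were sequenced from its small RNA fraction. In such bulk samples, fewer cells of a type and less RNA per cell cannot be told apart.

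Mature tRNAs are cut in stressed and in maturing germ cells, often in the anticodon loop, which leaves 5′ and 3′ fragments. Sperm acquire much of their tRNA fragment load while passing through the epididymis, where epithelial vesicles deliver RNA. The 5′ fragments of tRNA-Ala start with a run of guanines and are known for inhibiting translation, and tRNA-Pro is known as the primer with which many murine leukaemia viruses begin reverse transcription. The last bases of a mature tRNA, CCA, are added by an enzyme and are not encoded in the genome, so that a read with an intact 3′ end need not match the genome sequence.

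In the RefSeq annotation of GRCm38, which is the same build as mm10, 49 tRNA genes matched the members by name, with lengths of 72 to 73 bases. tRNA-Ala-AGC had 13 gene copies, 9 of them on chromosome 13 between 21222586 and 23431484. tRNA-Ala-CGC had 9 copies and tRNA-Ala-TGC had 11, and these shared a cluster on chromosome X, with 5 CGC copies between 136367721 and 136567936 and 7 TGC copies between 136357602 and 136590436. The proline genes were dispersed, with 6 copies of tRNA-Pro-AGG on 6 chromosomes, 3 of tRNA-Pro-CGG on 3 and 7 of tRNA-Pro-TGG on 6. On chromosome 3 a tRNA-Pro-TGG gene (51358354 to 51358425) lay beside a tRNA-Pro-AGG gene (51359407 to 51359478), and on chromosome 7 the same 2 kinds of gene lay side by side (98815415 to 98815486 and 98815676 to 98815747). The copies of a tRNA are nearly identical, so a read is assigned to an isoacceptor and not to a gene, and reads shared by isoacceptors of the same amino acid may be split between them in ways that the counts do not show.

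Reads mapped to the genome ranged from 4465281 to 7612603 per mouse, and all tRNA isoacceptors together took 2.75% to 24.7% of them. Mouse 59L1 of the PRCT group stood apart for alanine and mouse 07C3 of the CTCT group for the end listings. Spans and group comparisons that rest on them are given with and without them, and correlations only with all mice. For mice 47I1 and 47I2 the sample labels, which were followed, give the CTCT and the CTPR group, whereas the study's list of mice gives the opposite. Sperm miRNA markers (mir-34b, mir-34c, mir-191, mir-449a and mir-465a) summed to 36.2 to 1085 reads per 1000000 mapped reads (RPM) in CTCT, 138 to 1717 in CTPR, 225 to 913 in PRCT and 178 to 1652 in PRPR, with mir-449a and mir-465a at 0 in at least 1 mouse. Markers of other cells were present too. The 5 epididymal epithelial entries of the mir-200 family, none of them at 0 in any mouse, summed to medians of 525.5 RPM in CTCT (range 38.9 to 1294), 1044 in CTPR (34.2 to 2227), 392 in PRCT (132 to 1043) and 451 in PRPR (96.9 to 1298). The 8 smooth muscle and stromal entries for mir-143, mir-145, mir-1 and mir-133a had medians of 1549 (63.5 to 3276), 2606 (71.6 to 8575), 1270 (386 to 3443) and 1153 RPM (249.7 to 3548) in the same order, with 6 of the 8 at 0 in at least 1 mouse. The 4 blood entries (mir-144, mir-223, mir-451a and mir-451b) stayed between 2.75 and 64.0 RPM and the liver miRNA mir-122 between 0 and 3.6 RPM. The part of these cells in the results was not tested.

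Of the 7 members, 6 were found in every mouse, and tRNA-Ala-GGC had only 11 reads in all, 1 to 4 in each of 6 mice. tRNA-Ala-TGC was the most abundant member, with a median of 148 RPM and rank 16 of the 54 entries by median RPM. tRNA-Ala-CGC followed with 63.3 RPM (rank 26), then tRNA-Pro-TGG with 41.9 (rank 33), tRNA-Ala-AGC with 36.4 (rank 35), tRNA-Pro-AGG with 35.5 (rank 36) and tRNA-Pro-CGG with 26.2 (rank 40). Since the genes differ in length by a single base at most, these levels in RPM also hold per length. tRNA-Gly-GCC, the most abundant entry, had a median of 68177 RPM, and all 7 members together took a median of 0.295% of the tRNA isoacceptor reads, from 0.173% to 1.06%. The members found in every mouse had 16 to 14352 reads in a mouse.

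Mice 59L1 and 07C3 set the width of the alanine ranges. From the lowest to the highest mouse the RPM spanned 98.2-fold for tRNA-Ala-TGC, 43.2-fold for tRNA-Ala-AGC and 30.4-fold for tRNA-Ala-CGC. The span was 7.25-fold for tRNA-Pro-AGG, 9.32-fold for tRNA-Pro-CGG and 10.2-fold for tRNA-Pro-TGG. The SD of log2(RPM + 1) over the 38 mice was 1.13, 1.08 and 0.98 for the alanine members and 0.74, 0.80 and 0.73 for the proline members in that order. Without 59L1 and 07C3 the spans were 8.80-fold, 10.6-fold and 9.46-fold for the alanine members, as wide as those of the proline members, which did not change, and the SDs 0.86, 0.92 and 0.83 against 0.74, 0.80 and 0.72. Within alanine, tRNA-Ala-TGC supplied a median of 61.3% of reads, from 37.8% to 78.6%. Proline reads were spread evenly, with medians of 38.6% from tRNA-Pro-TGG, 36.97% from tRNA-Pro-AGG and 25.5% from tRNA-Pro-CGG. The ratio of alanine to proline reads had a median of 2.92 in CTCT, 2.89 in CTPR, 2.67 in PRCT and 2.70 in PRPR, so the group medians lay close together, whereas single mice went from 0.326 (07C3) to 12.1 (59L1).

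**Figure D1:**
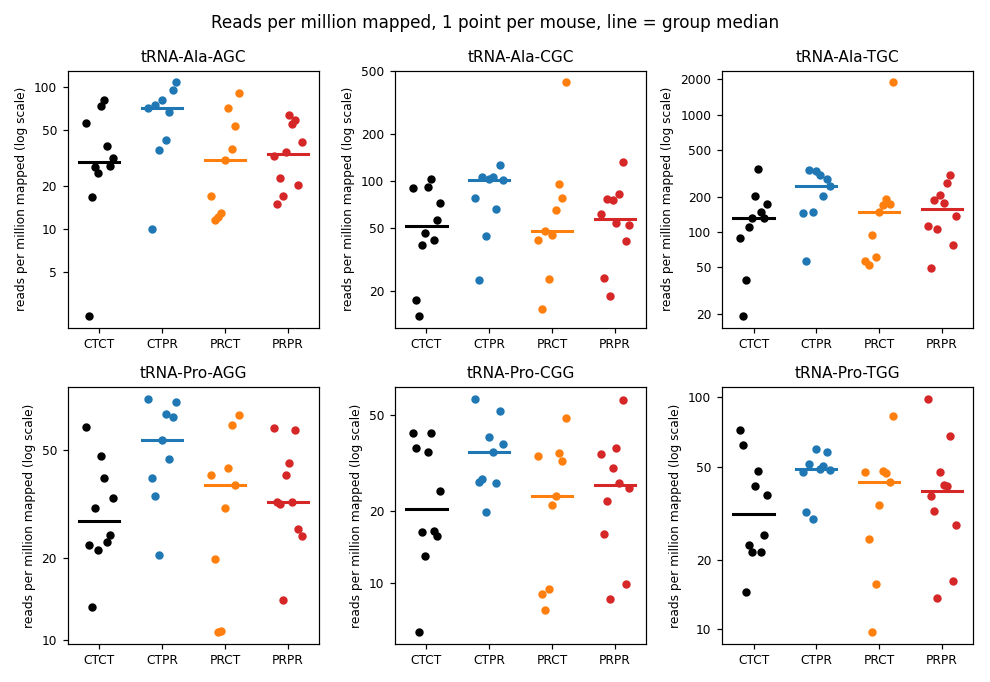
Reads per 1000000 mapped reads, RPM (log axis), of the 6 members found in every mouse, with a point for each mouse of the 4 diet groups and a line at the group median. The CTPR medians are the highest for all 6 members, the groups overlap throughout, and in PRCT mouse 59L1 lies far above the rest for tRNA-Ala-TGC (1885) and tRNA-Ala-CGC (423).

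Restriction after weaning in sons of control-fed dams, CTPR against CTCT, asks how the adult diet alone bears on the fragments. All 6 members had higher medians in CTPR. tRNA-Pro-AGG had 13.1, 27.4 and 60.7 RPM (lowest, median and highest) in CTCT and 20.5, 54.2 and 77.2 in CTPR. Of the CTPR mice, 4 lay above the highest CTCT mouse and 1 lay below the CTCT median, so the groups overlapped. The log2 fold change was 0.77 ± 0.32 (SE, edgeR quasi-likelihood test, nominal P = 0.0199, adjusted P = 0.0715 over 54 entries), which made it the only member past a nominal P of 0.05. By that rule 35.2% of all entries were called in this comparison, all 19 of them higher in CTPR, so 1 of 7 members is no more than the background. None passed after adjustment by edgeR, nor by DESeq2 with the same library sizes, whereas DESeq2 with its own size factors, which remove the shared rise, put 3 other entries below CTCT after adjustment. Without mouse 09H5, 45L3 or 47I1, edgeR gave 14, 17 and 15 entries past the threshold after adjustment. The median log2 fold change was 0.71 over all entries and 0.65 over the 6 members.

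The other members stood as follows. tRNA-Ala-AGC had 2.48, 29.7 and 80.5 RPM in CTCT and 10.1, 70.9 and 107 in CTPR, with a log2 fold change of 0.78 ± 0.40 (edgeR, nominal P = 0.0565, adjusted P = 0.145). Leaving out any 1 of 7 mice (02A6, 09H5, 45L1, 45L3, 47I1, 49K3 or 59L1) brought it past the nominal threshold, with P between 0.0213 and 0.0480 in edgeR. Mouse 59L1 is in neither group compared and enters only through the spread estimated over all groups in 1 fit. tRNA-Ala-TGC had 19.2, 131 and 343 RPM in CTCT and 56.0, 249 and 340 in CTPR, and its log2 fold change of 0.73 ± 0.51 had a nominal P of 0.158 in edgeR, or 0.99 with P = 0.0410 without mouse 47I1. The highest mice of the 2 groups were at nearly the same level, and the median and the lowest mouse were higher in CTPR. tRNA-Ala-CGC went from a median of 51.5 to 101 RPM (log2 fold change 0.56 ± 0.43), tRNA-Pro-CGG from 20.3 to 34.9 (0.54 ± 0.34) and tRNA-Pro-TGG from 31.6 to 49.3 (0.38 ± 0.33), none of them past the nominal threshold in edgeR. These directions hold relative to all mapped reads. With TMM factors computed over the tRNA isoacceptors tRNA-Pro-AGG had 0.04, tRNA-Ala-CGC -0.16, tRNA-Pro-CGG -0.29 and tRNA-Pro-TGG -0.60. tRNA-Ala-AGC and tRNA-Ala-TGC kept their direction with those factors. The summed sperm, epididymal, smooth muscle and blood miRNA markers and the nearly absent liver miRNA also had their highest medians in CTPR.

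Between littermates the CTPR brother had more tRNA-Pro-AGG RPM in 7 of 8 litters, with a median log2 ratio of 0.79 and a range from -1.22 to 1.59. For tRNA-Pro-CGG, tRNA-Pro-TGG, tRNA-Ala-TGC and tRNA-Ala-CGC it was 6 of 8 litters, with medians of 0.68, 0.68, 0.59 and 0.37, and for tRNA-Ala-AGC 5 of 8, with 0.25. In litter 45L all 6 members were lower in the CTPR mouse. With litter as a block, edgeR gave log2 fold changes of 0.71 ± 0.29 for tRNA-Pro-AGG (P = 0.0138, adjusted P = 0.0900), 0.64 ± 0.29 for tRNA-Pro-CGG (P = 0.0302, adjusted P = 0.108) and 0.54 ± 0.27 for tRNA-Ala-TGC (P = 0.0490, adjusted P = 0.121), so that 3 of 7 members passed the nominal threshold, near the 38.9% of all entries called in that fit. In the same litters without the block no member did, and 5.56% of the entries were called.

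**Figure D2:**
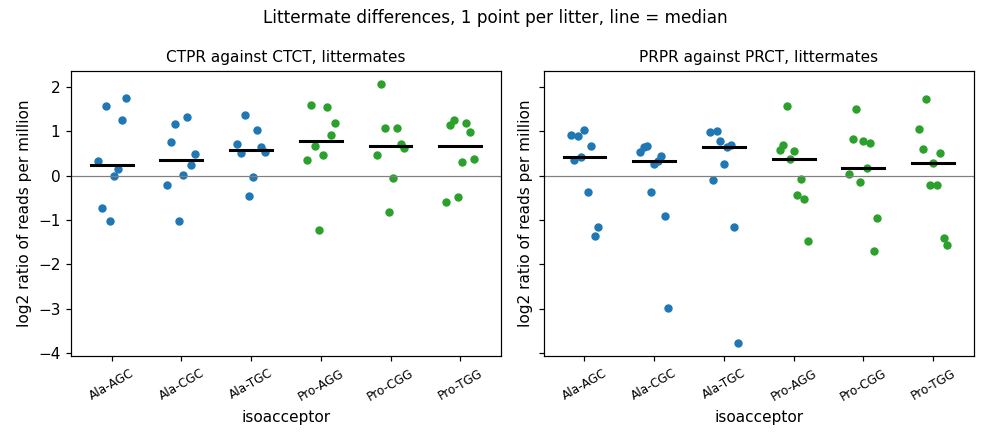
Log2 ratio of RPM between brothers for each member, with a point for each of the 8 CT litters (left, CTPR over CTCT) or 9 PR litters (right, PRPR over PRCT) and a line at the median. On the left most points lie above 0 for every member, alanine and proline. On the right litter 59L gives the lowest points of tRNA-Ala-TGC, at -3.78, and of tRNA-Ala-CGC.

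Restriction before weaning alone, PRCT against CTCT, gave a call for tRNA-Ala-TGC, and it rested on mouse 59L1. The PRCT group had 52.6, 147 and 1885 RPM, and its second highest mouse had 189.5. The log2 fold change was 1.19 ± 0.51 (edgeR, nominal P = 0.0233, adjusted P = 0.951), the only call in this comparison (1.85% of the entries), and without 59L1 it was -0.23 with P = 0.550. tRNA-Ala-CGC had 15.5, 47.9 and 423 RPM in PRCT and 13.9, 51.5 and 103 in CTCT, and its log2 fold change of 0.73 ± 0.43 became -0.13 without 59L1 (edgeR, P = 0.0975 and 0.726). Without mouse 14A4 instead it was 0.87 with P = 0.0461. tRNA-Ala-AGC, which is also an alanine tRNA, had a log2 fold change of 0.01 ± 0.41, and the proline members had 0.21 ± 0.33 (AGG), 0.01 ± 0.35 (CGG) and 0.13 ± 0.34 (TGG), all smaller than their SE.

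In 59L1 the 5′ end listing of tRNA-Ala-TGC did not rise with its main count. This mouse had 14352 tRNA-Ala-TGC and 3219 tRNA-Ala-CGC reads, while tRNA-Ala-AGC had 691. The listings of reads by tRNA end, a separate assignment described further on, gave 60 reads of tRNA-Ala-TGC for the 5′ end and 50 for the 3′ end. Its 5′ listing, 0.418% of its reads, was the lowest of the 38 mice. The 3′ end listing held 426 reads of tRNA-Ala-CGC, against at most 52 in any other mouse. The tRNA-Ala-TGC reads that end in CCA and do not match the genome numbered 644, or 84.6 RPM, and the highest values in CTCT, CTPR and PRPR were 15.1, 13.0 and 12.6. All tRNA isoacceptors together made up 24.6% of the mapped reads of 59L1, and its proline reads, at 199 RPM, were also the highest of the 38 mice. Its PRPR brother had 137 RPM of tRNA-Ala-TGC and 52.9 of tRNA-Ala-CGC.

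Restriction throughout, PRPR against CTCT, and restriction after weaning in sons of restricted dams, PRPR against PRCT, gave no call for any of the 54 entries by edgeR at a nominal P of 0.05 (0% in each). DESeq2 with the same library sizes gave none either, and with its own size factors 1 and 2. The latter included tRNA-Ala-CGC, as given below. In PRPR tRNA-Ala-TGC had 49.2, 157 and 308 RPM and tRNA-Pro-AGG 14.0, 32.2 and 60.4, ranges that lay within those of CTCT. Against CTCT the log2 fold changes were 0.23 ± 0.50 for tRNA-Ala-TGC, 0.12 ± 0.43 for tRNA-Ala-CGC, -0.06 ± 0.41 for tRNA-Ala-AGC, 0.23 ± 0.32 for tRNA-Pro-AGG, 0.12 ± 0.34 for tRNA-Pro-CGG and 0.22 ± 0.33 for tRNA-Pro-TGG. Each was smaller than its SE, so a change of that size was not detectable with this spread between mice.

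Against PRCT the log2 fold change of tRNA-Ala-TGC was -0.96 ± 0.50 (edgeR, nominal P = 0.0632), which became 0.46 with P = 0.235 without 59L1. Leaving out any 1 of 9 mice (35F1, 47I1, 14A4, 08G3, 23F4, 40H3, 31A3, 39F5 or 46I3) while keeping 59L1 brought P to between 0.0330 and 0.0482. Of these, 35F1 and 47I1 are in neither group compared and enter only through the spread estimated over all groups in 1 fit. tRNA-Ala-CGC had -0.61 ± 0.43, or 0.25 without 59L1. With 59L1 kept, TMM factors gave -0.56 for tRNA-Ala-CGC (edgeR, P = 0.0263) and -0.70 for tRNA-Ala-TGC (edgeR, P = 0.0312). DESeq2 with its own size factors gave -0.54 for tRNA-Ala-CGC (P = 0.0322). No entry passed after adjustment in either setting. Between brothers the median log2 ratio of tRNA-Ala-TGC was 0.64, higher in PRPR in 6 of 9 litters, opposite in sign to the group difference. The litter medians were positive for the other 5 members too, from 0.17 to 0.41, with 5 or 6 of 9 litters higher. The exceptions were partly shared. In litters 51O and 59L all 6 members were lower in the PRPR brother, whereas in 14A, 31A, 40H and 46I only some were. With litter as a block the log2 fold change of tRNA-Ala-TGC was 0.07 ± 0.37 (edgeR, P = 0.847).

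Whether the change after weaning differed between CT and PR litters was tested as the difference between those 2 changes. It was 1.69 ± 0.71 on the log2 scale for tRNA-Ala-TGC (edgeR, nominal P = 0.0227, adjusted P = 0.496), and 2 of the 54 entries (3.7%) were called. Without 59L1 it was 0.27 with P = 0.618. For tRNA-Ala-CGC it was 1.17 ± 0.61 (P = 0.0613 in edgeR), and 0.31 without 59L1. It passed the nominal threshold when any 1 of 11 other mice was left out, namely 02A6, 09H5, 45L1, 45L3, 47I1, 14A4, 08G3, 23F4, 31A3, 39F5 or 46I3. tRNA-Ala-AGC had 0.85 ± 0.58, tRNA-Pro-AGG 0.76 ± 0.45, tRNA-Pro-CGG 0.43 ± 0.49 and tRNA-Pro-TGG 0.29 ± 0.47, none called, beside a median of 0.51 over all entries.

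**Figure D3:**
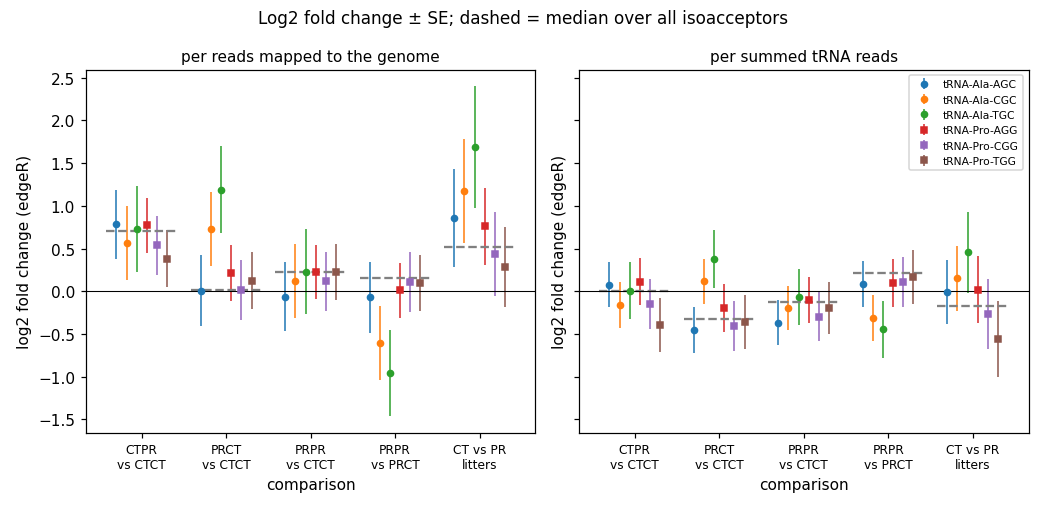
Log2 fold change with its SE for the 6 members in the 5 comparisons, from reads mapped to the genome (left) and from the summed tRNA reads (right), the last comparison being the difference between the changes after weaning in CT and PR litters. The dashed line is the median over all entries, about 0.71 for CTPR against CTCT on the left, and most members lie near it, with tRNA-Ala-TGC and tRNA-Ala-CGC farther off where PRCT enters.

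Expressed as a share of the summed tRNA isoacceptor reads, no member was called in any of the 5 comparisons. For CTPR against CTCT, tRNA-Pro-AGG took 0.0195%, 0.0317% and 0.0527% of tRNA reads in CTCT and 0.0150%, 0.0353% and 0.0838% in CTPR, so the CTPR range enclosed that of CTCT. Its log2 fold change by share was 0.11 ± 0.28 (edgeR, P = 0.683), tRNA-Ala-AGC had 0.08 ± 0.26 and tRNA-Ala-TGC 0.01 ± 0.34. The other log2 fold changes by share were -0.15 ± 0.29 for tRNA-Pro-CGG, -0.16 ± 0.27 for tRNA-Ala-CGC and -0.40 ± 0.32 for tRNA-Pro-TGG, whereas all tRNA isoacceptors together had medians of 9.29% of mapped reads in CTCT and 15.9% in CTPR. The background was 3.7% of entries for CTPR against CTCT, 14.8% for PRCT against CTCT, 0% for PRPR against CTCT, 1.85% for PRPR against PRCT and 5.56% for the difference between litters.

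By share, tRNA-Ala-AGC was lowest in the sons of restricted dams, with medians of 0.0246% in PRCT and 0.0296% in PRPR against 0.0421% in CTCT and 0.0386% in CTPR. The log2 fold changes from CTCT were -0.45 ± 0.27 in PRCT (edgeR, P = 0.101) and -0.37 ± 0.26 in PRPR (P = 0.166). Mouse 07C3 had the lowest share of all, 0.00452% from 16 reads, and without it they were -0.57 (edgeR, P = 0.0180) and -0.49 (P = 0.0350). In that fit without 07C3, 16 entries were called for PRCT against CTCT and 1 for PRPR against CTCT. Without 40H1 the PRCT value was also -0.57 (P = 0.0473). With all mice included, the median over all entries was -0.33 for PRCT and -0.12 for PRPR. For tRNA-Pro-CGG the PRCT log2 fold change of -0.41 ± 0.30 became -0.65 without mouse 08G3 (edgeR, P = 0.0318). tRNA-Pro-TGG had -0.40 ± 0.32 in CTPR and -0.36 ± 0.32 in PRCT, neither called, and without 07C3, the CTCT mouse with the highest share, -0.12 and -0.083. Without 08G3 the PRCT value was -0.55, also not called.

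Across the 38 mice the members formed 2 blocks. On log2(RPM + 1), Pearson's r between alanine members was 0.81 to 0.91 and between proline members 0.85 to 0.90, while alanine with proline gave 0.44 to 0.72 over 9 pairs. All of these points share the library, its depth and the level of tRNA in it, as each member also rose with the RPM of all isoacceptors, with r from 0.61 for tRNA-Pro-TGG to 0.85 for tRNA-Ala-CGC. On the log2 share, which removes that level, the proline members kept r of 0.79 to 0.84 and the alanine members 0.39 to 0.72. Alanine with proline then gave -0.20 to 0.26. Mouse 59L1 had the highest shares of tRNA-Ala-TGC and tRNA-Ala-CGC. Mouse 07C3 had the highest of tRNA-Pro-TGG and tRNA-Pro-CGG and the lowest of tRNA-Ala-AGC. All correlations are given with both mice included, so how far they rest on these mice is not shown. Reads split between isoacceptors of an amino acid could enter either block, and their part was not tested.

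The nearest isoacceptors differed in the same way. For tRNA-Pro-AGG, tRNA-Pro-CGG and tRNA-Pro-TGG the 3 highest correlations, on either scale, were with the other 2 proline members and then tRNA-Leu-AAG, with r of 0.77 to 0.86 for the latter on log2(RPM + 1) and 0.66 to 0.70 on the share. tRNA-Ala-TGC was nearest to tRNA-Trp-CCA (0.94, and 0.81 by share), then to tRNA-Arg-TCG (0.91 and 0.76), and then to tRNA-Ala-CGC by RPM (0.91) and to tRNA-Phe-GAA by share (0.74). tRNA-Ala-CGC was nearest to tRNA-Ala-TGC on both scales, with 0.91 and 0.72, followed by tRNA-Trp-CCA (0.87 and 0.55) and tRNA-Arg-CCG (0.86 and 0.53). tRNA-Ala-AGC had no alanine tRNA among its 3 nearest. These were tRNA-Thr-TGT (0.90), tRNA-Trp-CCA (0.89) and tRNA-Met-CAT (0.88) by RPM, and tRNA-Lys-TTT (0.67), tRNA-Cys-GCA (0.66) and tRNA-Phe-GAA (0.65) by share. Marker miRNAs were set against the log2 share in the same way. The smooth muscle list had r of 0.54 with tRNA-Ala-AGC, 0.23 with tRNA-Ala-CGC, 0.58 with tRNA-Ala-TGC and -0.46 to -0.41 with the proline members. The sperm list had 0.59, 0.20, 0.54 and -0.51 to -0.44 in that order, the epididymal list 0.52, 0.12, 0.48 and -0.45 to -0.38, and the blood list, which was scarce, 0.49, 0.17, 0.49 and -0.56 to -0.44. The liver miRNA, nearly absent, had -0.04 to 0.26 over the 6 members. tRNA-Ala-CGC thus lay between the other alanine members and the proline members for the first 4 lists. The negative values of the proline members belong to the share. On log2(RPM + 1) they had r of 0.02 to 0.09 with the smooth muscle list and 0.18 to 0.28 with the sperm list. With the epididymal list it was -0.004 to 0.07 and with the blood list 0.10 to 0.21. All isoacceptors together, the denominator of the share, had 0.43, 0.64, 0.40 and 0.61 in that order.

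**Figure D4:**
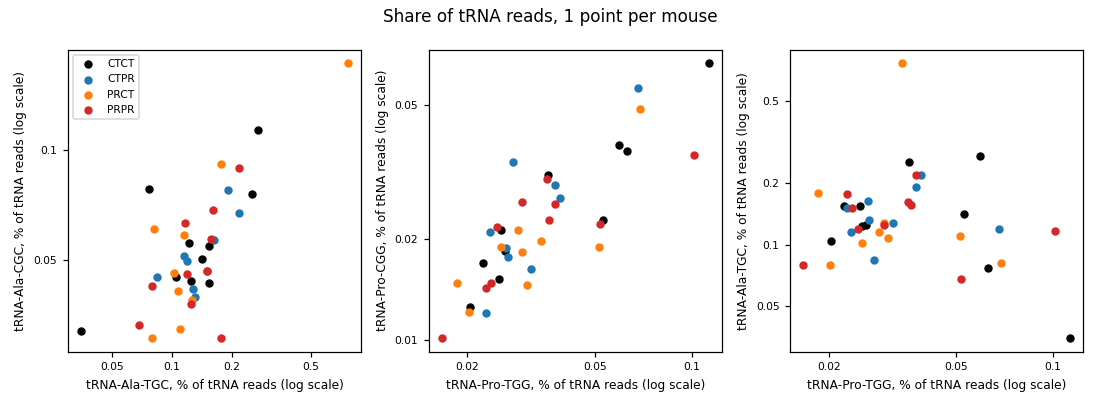
Share of tRNA reads in percent (log axes) of pairs of members, with a point for each of the 38 mice coloured by diet group. tRNA-Pro-CGG follows tRNA-Pro-TGG (r = 0.84), tRNA-Ala-CGC follows tRNA-Ala-TGC more loosely (0.72) with 59L1 at the top right, and tRNA-Ala-TGC against tRNA-Pro-TGG shows no rise (-0.20).

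The files also list reads by the end of the tRNA they come from. This listing was made in a separate assignment, in which shared reads can go to another isoacceptor than in the main list, so the 5′ listing per 100 isoacceptor reads can exceed 100. It had a median of 179% for tRNA-Ala-AGC, 86.3% for tRNA-Pro-AGG, 29.9% for tRNA-Ala-CGC, 19.2% for tRNA-Pro-CGG, 14.8% for tRNA-Pro-TGG and 7.23% for tRNA-Ala-TGC. The most abundant member thus had the lowest 5′ listing relative to its reads, although its median of 77 reads there was above the 26 of tRNA-Pro-CGG and the 32 of tRNA-Pro-TGG. Summed over the isoacceptors of an amino acid, where a shift of reads between them cancels, the medians were 40.5% for alanine (range 4.04% to 76.8%) and 43.0% for proline (17.04% to 93.3%). Reads of the 3′ end were few, with medians of 18 for tRNA-Ala-CGC and 26 for tRNA-Pro-AGG, and at most 2 for tRNA-Pro-TGG and 0 for tRNA-Pro-CGG.

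The 5′ share was compared across groups for the 42 isoacceptors with at least 10 reads in every mouse, 6 of them members. For CTPR against CTCT, tRNA-Pro-CGG had 5.84%, 15.9% and 23.6% in CTPR and 11.8%, 21.2% and 32.4% in CTCT, with the groups overlapping and means of 15.4% ± 5.20 (SD, n = 9) and 20.9% ± 5.74 (SD, n = 10). The difference of -5.42 percentage points had a P of 0.0450 in an exact permutation test (two-sided, adjusted P = 0.315). Between the brothers among these mice it was -5.37 in the exact sign-flip test (P = 0.0391, adjusted P = 0.328). tRNA-Pro-CGG was the only member among the 14.3% of isoacceptors called. With the groups of 47I1 and 47I2 exchanged the difference was -4.36 and no longer called. The call was also lost, with P of 0.0512 to 0.0962, on leaving out any 1 of 13 mice (02A8, 09H5, 35F1, 35F2, 29L6, 45L1, 45L3, 53M1, 56I1, 47I1, 47I2, 49K1 or 57P1).

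No member was called for the other comparisons of the 5′ share, where 9.52% (PRCT against CTCT), 7.14% (PRPR against CTCT) and 2.38% (PRPR against PRCT) of the isoacceptors were. That result turned on mouse 07C3 for tRNA-Pro-AGG. In 07C3 the 5′ listing gave 598 reads of tRNA-Pro-AGG against 144 in the main list, or 415%, and the next CTCT mouse had 97.1%. With 07C3 the CTCT mean was 110% ± 108 (SD, n = 10) and that of PRCT 107% ± 21.2 (SD, n = 9). Without 07C3 the CTCT mean was 76.1% ± 10.1 and PRCT was 31.4 percentage points higher (exact permutation test, P = 0.00119, adjusted P = 0.0302 over 42 isoacceptors). Without 07C3, 19% of the isoacceptors were called for PRCT and 11.9% for PRPR against CTCT. PRPR, with a mean of 104% ± 31.2 (SD, n = 10), was then 27.7 points higher than CTCT (exact permutation test, P = 0.0177, adjusted P = 0.371). CTPR, with 74.7% ± 25.8 (SD, n = 9), then differed from CTCT by -1.35 points (exact permutation test, P = 0.888).

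For tRNA-Pro-TGG, with all mice included, the mean 5′ shares were 11.6% ± 5.75 in CTCT, 13.8% ± 10.7 in CTPR, 16.4% ± 4.51 in PRCT and 16.7% ± 6.36 in PRPR (SD). PRCT lay 4.83 points above CTCT (exact permutation test, P = 0.0584), and 5.92 above without 07C3 (exact permutation test, P = 0.0156, adjusted P = 0.131). Leaving out 02A6, 40H1 or 31A3 also brought it past the nominal threshold. PRPR lay 5.05 points above CTCT (permutation test, P = 0.0788), past the threshold without 07C3 or without 40H3. For tRNA-Ala-AGC the means were 229%, 193%, 215% and 215% in CTCT, CTPR, PRCT and PRPR, with SDs of 65.9 to 117. Without 07C3 the CTCT mean was 199.8% for tRNA-Ala-AGC and 27.6% for tRNA-Ala-CGC, below the PRCT and PRPR means of both (28.5% and 33.5% for tRNA-Ala-CGC), but neither was called.

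**Figure D5:**
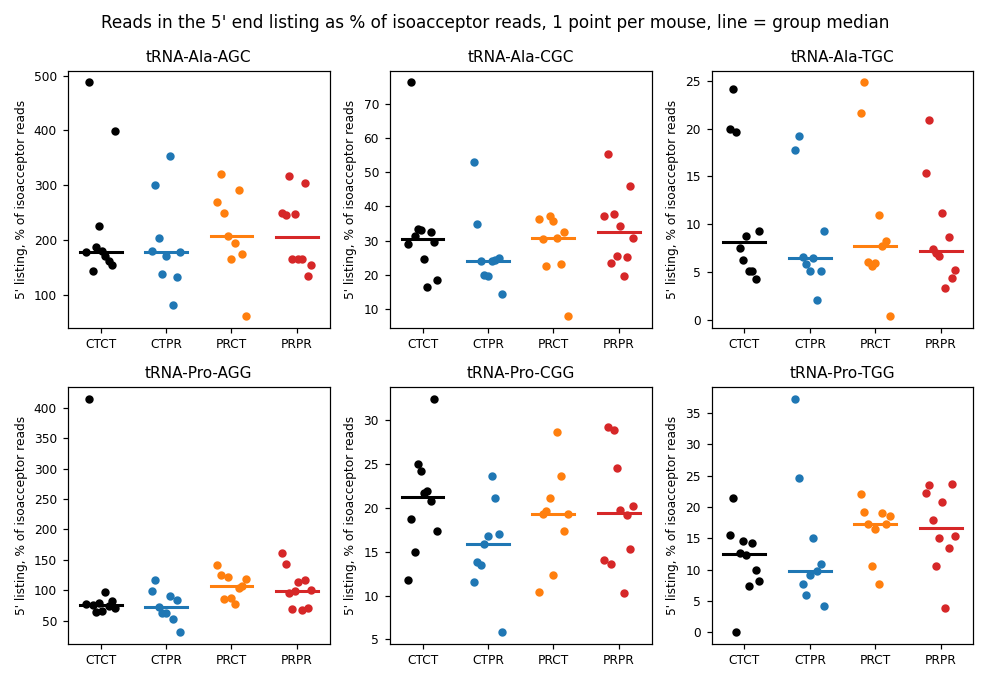
Reads in the 5′ end listing as a percentage of the reads of the isoacceptor, with a point for each mouse and a line at the group median. The CTCT mouse 07C3 lies at 415% for tRNA-Pro-AGG, above the 63.4% to 97.1% of the other CTCT mice, and the PRCT and PRPR medians (107% and 99.3%) lie above those of CTCT and CTPR (76.2% and 72.8%).

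Reads that end in CCA were listed separately for reads that match the genome and reads that do not. Among matching reads the medians were 36.5 for tRNA-Pro-AGG (13 to 104) and 18.5 for tRNA-Ala-AGC (0 to 53), with at most 7 for tRNA-Pro-TGG and 0 for the others. Of reads not matching the genome, 37 mice had a listing. Their medians were 6.45 RPM for tRNA-Ala-AGC, 4.84 for tRNA-Pro-AGG, 4.37 for tRNA-Ala-TGC, 1.34 for tRNA-Ala-CGC and 0.608 for tRNA-Pro-TGG, and no such read was listed for tRNA-Pro-CGG. The CTPR medians of 8.83 RPM for tRNA-Ala-AGC, 6.74 for tRNA-Ala-TGC and 5.99 for tRNA-Pro-AGG were above the CTCT medians of 5.77, 3.76 and 3.66. The ranges of the 2 groups overlapped for each, and the difference was not tested.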

How the data were processed

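Small RNA of 38 sperm samples was sequenced. According to the labels and the study's methods, the authors annotated the reads with SPORTS 1.0 on the mouse genome mm10 and on databases of small RNA, and deposited raw read counts of each class and its members, 1 listing per mouse, neither normalised nor pooled. Database versions are not given in the sources used here. Groups came from the labels and litters from the study's list of mice. The members and lists were chosen with earlier results of these data known.

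Counts of the 54 isoacceptor entries were tested in edgeR 4.0.16 (R 4.3.3, glmQLFit and glmQLFTest, the 4 groups in 1 fit), with library sizes of 4465281 to 7612603 mapped reads or the summed tRNA reads, and adjusted by Benjamini-Hochberg over all entries. A nominal P under 0.05 was a call. DESeq2 1.42.0 was an alternative. The 5′ share was tested two-sided by permutation, exact where a group held under 10 mice and with 100000 permutations otherwise (Python 3.11.15). All members were named, and other isoacceptors only as the most abundant and the 3 nearest. A pseudocount of 1 RPM served for correlations, without tRNA-Ala-GGC for want of reads.

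Brothers shared a dam, and the correlation of their deviations from the group means was above 0.1 in 7 of 8 CT litters and 7 of 9 PR litters. Taken over all isoacceptors together, mice of a group differed far beyond counting noise, with a chi-square of at least 139.8 per degree of freedom. The code was tested on simulated data. Counting error is small only for the larger counts. The 5′ shares of tRNA-Pro-CGG and tRNA-Pro-TGG rest on few reads. For tRNA-Pro-CGG in mouse 09H7 they were 6 in the 5′ listing and 40 in the main list. The part of counting error in the spread of these shares was not tested.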

Additional observations from a re-analysis of the deposited data

Results flagged for a closer look

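Of 72 sets of values (6 members, 4 groups, and RPM, share of tRNA reads or 5′ share), 14 held a mouse flagged by Dixon's criterion. It flags a mouse whose gap to its neighbour is too large a part of the group's range. For normally distributed values chance alone gives this in about 1 in 20. The values were not log-transformed, so that rate need not hold for them. Sets of the same mouse are not independent.

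Mouse 59L1 (PRCT) gave 5 of them. The gap was 0.925 of the range for the RPM of tRNA-Ala-TGC and 0.802 for tRNA-Ala-CGC, and by share of tRNA reads 0.857 and 0.572. In the 5′ share of tRNA-Ala-CGC it was the lowest of its group, at 7.95% with 22.5% next, a gap of 0.498.

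Mouse 07C3 (CTCT) gave 4, as the highest of its group. The gaps were 0.529 for the share of tRNA-Pro-CGG, 0.544 for the share of tRNA-Pro-TGG, 0.715 for the 5′ share of tRNA-Ala-CGC and 0.904 for that of tRNA-Pro-AGG. The other 5 were high shares of tRNA reads, namely tRNA-Pro-CGG (0.507) and tRNA-Pro-TGG (0.645) in 09H5 of CTPR, tRNA-Pro-CGG in 08G3 of PRCT (0.750), tRNA-Pro-TGG in 08G5 of PRPR (0.587) and tRNA-Ala-AGC in 57P1 of CTPR (0.493). The summed class totals of 07C3 and 08G5 differ from their mapped reads, by -130 and -1242386 reads.

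The change in tRNA-Ala-TGC after weaning differed between CT and PR litters by 1.69 on the log2 scale (edgeR, nominal P = 0.0227, adjusted P = 0.496), and by 0.27 without 59L1. In reads outside the main measurement, those of tRNA-Ala-CGC that end in CCA and do not match the genome had a CTPR median of 2.05 RPM, above the highest CTCT mouse at 1.93. This was not tested, and the lowest CTPR mouse had 0.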

How the results depend on the processing

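Of 580 member values recomputed under alternatives other than leaving out a mouse, 547 kept their side of the nominal threshold and their direction, 15 passed the threshold anew, 6 lost it and 12 turned in sign. Direction was read only where the difference exceeded its SE, as for 14 of 30 values by RPM and 10 of 30 by share. Library sizes taken from the study's list of mice are counted among these alternatives. They were identical in all 38 mice, so the values under them could not change.

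Scaling decided the direction in CTPR against CTCT for tRNA-Pro-AGG, tRNA-Ala-CGC, tRNA-Pro-CGG and tRNA-Pro-TGG. tRNA-Ala-AGC and tRNA-Ala-TGC kept their direction under every alternative, and tRNA-Pro-AGG stayed at 0.04 with TMM. DESeq2 with its own size factors, computed over the isoacceptors, gave log2 fold changes of -0.0016 for tRNA-Pro-AGG, -0.19 for tRNA-Ala-CGC, -0.34 for tRNA-Pro-CGG and -0.10 for tRNA-Pro-TGG, and TMM gave -0.16 for tRNA-Ala-CGC, -0.29 for tRNA-Pro-CGG and -0.60 for tRNA-Pro-TGG. For tRNA-Ala-TGC, DESeq2 with its own size factors gave -0.038 in PRCT against CTCT, 0.070 in PRPR against PRCT and -0.021 for the difference between litters. By share, that difference turned to 0.024 for tRNA-Pro-TGG without the 4 mice whose summed class totals differ from their mapped reads. The differences were -130 reads in 07C3, 613236 in 35F2, -1242386 in 08G5 and -119111 in 31A3.

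With litter as a replicate block, possible only within litters because the numbers in the labels do not pair mice otherwise, edgeR called 21 isoacceptors in CTPR against CTCT and 1 in PRPR against PRCT, and tRNA-Ala-TGC turned to 0.072 in the latter. In only those litters without the block, a setting added after the data had been seen, the counts were 3 and 1 by RPM and 0 for CTPR by share. By share the block gave 3 and 1, and in the 5′ share 6 and 1.

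The counts of isoacceptors called by RPM, in the order CTPR, PRCT and PRPR against CTCT, PRPR against PRCT and the difference between litters, were 19, 1, 0, 0 and 2. They were 5, 2, 1, 2 and 4 by DESeq2 with its own size factors, 4, 2, 1, 3 and 0 with TMM, and 45, 7, 4, 5 and 7 when the tRNA features were tested as listed, which are more numerous. Fitting only the groups compared gave 1 for PRPR against CTCT and 1 against PRCT. Without the 4 mice the counts were 12 for CTPR, 1 for PRPR against PRCT and 1 for the difference between litters. Without litter 47I they were 2 for PRCT, 2 for PRPR against CTCT, 2 against PRCT and 5 for the difference between litters. By share the counts were 2, 8, 0, 1 and 3. Without tRNA-Gly-GCC in the denominator they were 4 for CTPR, 3 for PRCT and 0 for the difference between litters. Exchanging the groups of 47I1 and 47I2 gave 4 for CTPR and 1 for PRPR against CTCT, and leaving that litter out 5 for CTPR and 5 for the difference. Without the 4 mice they were 1 for CTPR, 1 for PRPR against CTCT and 1 for the difference. For the 5′ share a logit, possible for isoacceptors under 100% in every mouse, gave 1 for PRPR against CTCT, and leaving out the 4 mice gave 2 for PRPR against PRCT. The cause of these shifts was not tested.

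Leaving out 1 mouse at a time gave 14 to 28, 0 to 3, 0 to 3, 0 to 2 and 0 to 7 calls by RPM, 0 to 7, 3 to 16, 0 to 3, 0 to 2 and 0 to 5 by share, and 2 to 7, 2 to 8, 0 to 5 and 0 to 3 in the 5′ share. The log2 fold change by RPM ranged from -0.23 to 1.44 for tRNA-Ala-TGC and -0.13 to 0.87 for tRNA-Ala-CGC in PRCT against CTCT, and from -1.11 to 0.46 and -0.79 to 0.25 in PRPR against PRCT. By share it ranged from -0.35 to 0.52 for tRNA-Ala-TGC in PRCT against CTCT, and from -0.54 to 0.29 for it and -0.43 to 0.053 for tRNA-Ala-CGC in PRPR against PRCT. In each of these the sign turned only without 59L1.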
